A study of Mus musculus with 2 samples.

Results

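The proteasome is the large protease that degrades most proteins tagged with ubiquitin in the cytosol and nucleus. The genes described here are the mouse genes of its subunits, activators and assembly factors, taken as every protein-coding gene of GENCODE annotation M21 whose symbol starts with Psm, one of the letters a to g, and a digit. The rule found 50 genes among 55536 annotated genes, of which 22028 are protein-coding, and 4 pseudogenes that match by symbol were left out. The rule reads symbols and annotation only. The RNA came from the gastrocnemius, a large calf muscle, of male B6CASTF1/J mice and was sequenced as total RNA. These mice are hybrids of C57BL/6J and CAST/EiJ and were aged 18 to 20 months. There was 1 group of 2 libraries, each from 300 ng of RNA with synthetic ERCC spike-in RNAs, and no treatment or mutant allele is named for either. Per the labels the libraries are biological replicates 1 and 2 from males with different numbers. One donor record is given for both males, and the spread between the libraries may therefore be technical. No comparison between conditions was possible, and the values below are levels, differences between the 2 libraries, and differences between the 2 deposited quantifications of the same reads.

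As background, the 20S core of the proteasome is a barrel of alpha rings around beta rings, and only 3 kinds of beta subunit cut peptides. Psmb6 carries the caspase-like, Psmb7 the trypsin-like and Psmb5 the chymotrypsin-like activity. Interferon-gamma and immune cells replace them with Psmb9, Psmb10 and Psmb8, in that order, to give the immunoproteasome, whose peptides feed antigen presentation. A 19S regulatory particle, with a ring of Psmc ATPases and a set of Psmd subunits, recognises ubiquitin chains and unfolds the substrate, and the Psme activators can take its place. In skeletal muscle the proteasome is known for degrading contractile proteins during atrophy.

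The catalytic genes come as related pairs, and the stretch of coding sequence in which each pair is most alike is shown because the results turn on telling the members apart by sequence. Each line is 60 bases of the reference coding sequence, 5′ to 3′ on the strand of the gene, with the bases that differ within the pair in capitals.
Psmb9: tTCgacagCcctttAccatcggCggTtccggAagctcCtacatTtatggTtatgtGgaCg
Psmb6: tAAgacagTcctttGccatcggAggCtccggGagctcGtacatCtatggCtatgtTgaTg
Psmb10: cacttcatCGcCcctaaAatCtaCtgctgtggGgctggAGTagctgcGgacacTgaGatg
Psmb7: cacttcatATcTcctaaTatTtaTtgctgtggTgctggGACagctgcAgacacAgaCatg
Psmb8: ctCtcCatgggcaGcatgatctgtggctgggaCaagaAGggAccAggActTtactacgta
Psmb5: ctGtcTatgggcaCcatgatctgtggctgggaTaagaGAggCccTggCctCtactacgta
Even in these windows the pairs differed at 12 bases for Psmb9 and Psmb6, 13 for Psmb10 and Psmb7, and 10 for Psmb8 and Psmb5. Over the aligned coding sequences, identity was 63.7%, 63.1% and 65.5%, and the longest shared runs were 11, 15 and 18 bases. In GRCm38 the Psmb9 window lies in exon 5 of Psmb9-204 at chr17:34183143-34183202 on the minus strand, and the Psmb6 window in exon 5 of Psmb6-201 at chr11:70527210-70527269 on the plus strand. The other windows cross a splice junction. They run over exons 3 and 4 of Psmb10-201 (chr8:105937345-105937516, minus), exons 3 and 4 of Psmb7-201 (chr2:38640177-38642200, minus), exons 4 and 5 of Psmb8-201 (chr17:34200232-34200731, plus) and exons 2 and 3 of Psmb5-201 (chr14:54614468-54616560, minus).

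The depth was 40795740 expected counts in replicate 1 and 44919441 in replicate 2. The libraries differed in markers of fibre and other cell types. All 8 slow-fibre markers were called higher in replicate 2, with a summed level of 222.11 TPM in replicate 1 and 2365.6 TPM in replicate 2 (TPM is a level divided by transcript length and scaled to a fixed total per library). The 10 skeletal muscle fibre markers, some of them fibre-type genes, summed to 98365 TPM in replicate 1 and 77915 TPM in replicate 2. The 2 of the 10 called higher in replicate 2 were the myosin genes Myh1 and Myh2, with ratios of 2.20 and 3.73 by scaled counts. The other 8 had lower values in replicate 2. Of 6 endothelial markers, 2 were called higher in replicate 2, and the 6 summed to 35.42 and 53.13 TPM. The rule for these calls is described below, and it called 4.48% of all genes tested higher in replicate 2. The part of these differences in the values below was not tested.

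The subunit genes of the core and of the 19S particle were all expressed, and the sum over all members was alike in both libraries. In the first quantification, 46 of the 50 genes had a level of at least 1 TPM in both libraries. The summed level of all 50 was 2241.5 TPM in replicate 1 and 2239.7 TPM in replicate 2, which is 0.489% and 0.511% of the TPM of nuclear protein-coding genes. Among 22015 such genes, 20 proteasome genes stood in the top 1000 in replicate 1 and 18 in replicate 2. The 14 constitutive subunits of the 20S core held 42.4% of the members' TPM in replicate 1 and 41.9% in replicate 2, and the 17 subunits of the 19S particle held 47.3% and 47.9%.

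**Figure D1:**
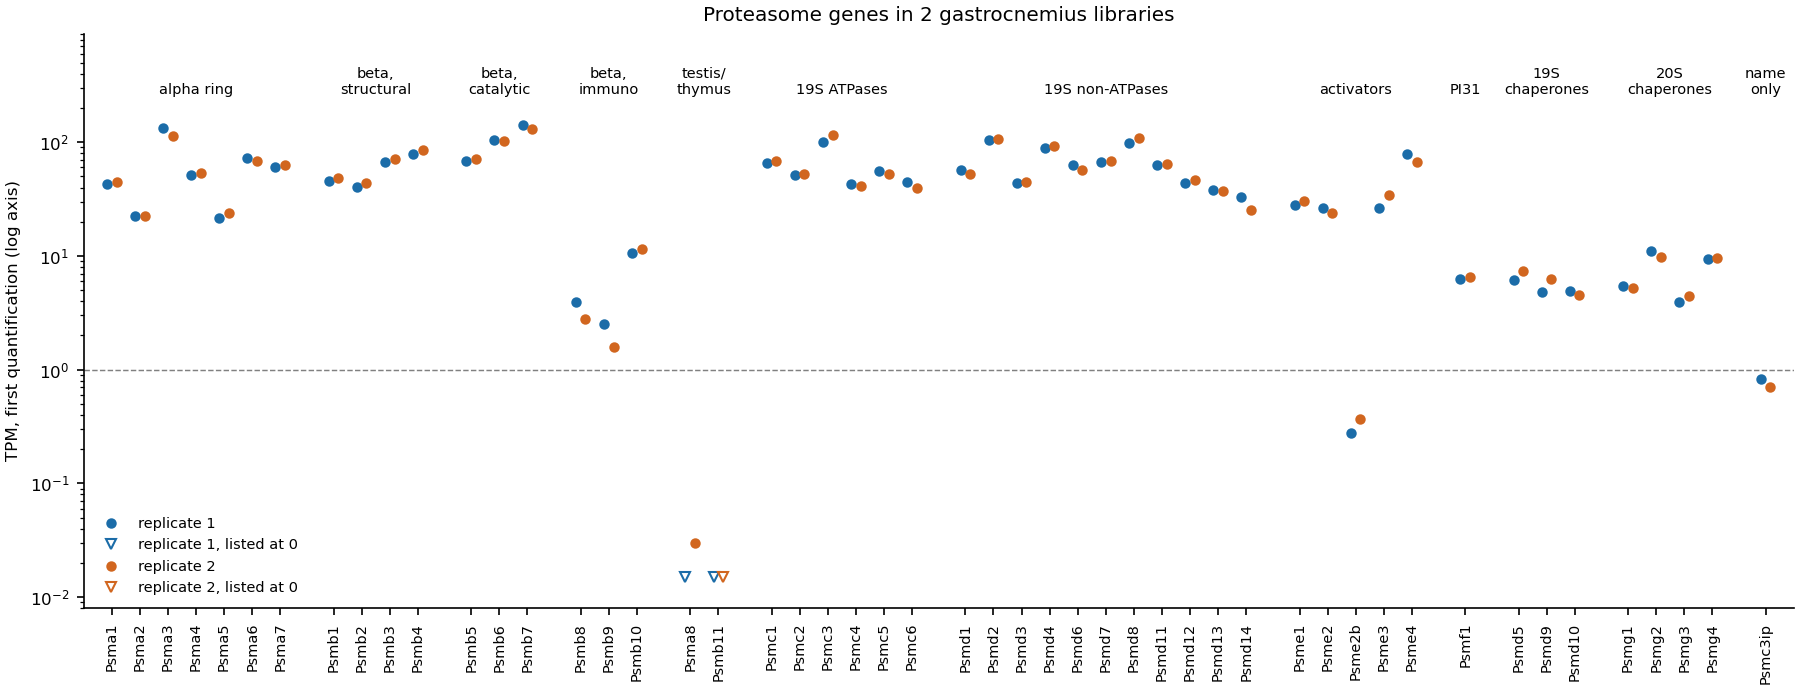
Level of each of the 50 genes in TPM (first quantification, log axis) by role, with 1 point per library and triangles for genes listed at 0. The dashed line marks 1 TPM; the core and 19S subunits lie between 21.6 and 141 TPM, and the immunoproteasome subunits and assembly chaperones lie lower.

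The 7 alpha subunits, which form the outer rings and the gate of the core, had a median level of 51.7 TPM in replicate 1 and 53.9 TPM in replicate 2. Psma3 was the highest, at 133.26 TPM in replicate 1 and 112.47 TPM in replicate 2. Psma5 had 21.63 and 23.71 TPM, and Psma2 22.59 and 22.58 TPM. These last genes were the lowest of the core in both libraries, and no other alpha subunit was below 42.88 TPM. For Psma2, 53.8% of the level in replicate 1 and 48.9% in replicate 2 was assigned to Psma2-201, a transcript of 2911 nt. The rest was assigned to Psma2-202, of 1353 nt, so the larger share changed between the libraries. The neighbouring gene AW209491 overlaps Psma2 by 8943 bp on the same strand.

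The structural beta subunits Psmb1, Psmb2, Psmb3 and Psmb4, which have no active site, ranged from 40.05 TPM (Psmb2) to 79.48 TPM (Psmb4) in replicate 1 and from 43.85 to 84.80 TPM, for the same genes, in replicate 2. The 3 constitutive catalytic subunits lay above them in median. In the first quantification Psmb7 was the highest gene of all 50, at 141.30 TPM in replicate 1 and 130.14 TPM in replicate 2. Psmb6 had 104.23 and 101.71 TPM, and Psmb5 had 68.19 and 71.10 TPM. Psmb5 shares 71.7% of its 31-base words with transcripts of other genes in the same orientation, mainly a pseudogene, and Psma5 58.7%. Some reads may therefore fit more than 1 gene. The deposited posterior standard deviation was 0.41% and 0.32% of the count for Psmb5 and 0.75% and 0.74% for Psma5. The order Psmb7, Psmb6, Psmb5 held in both libraries and in both quantifications. From the lowest to the highest of the 14 core subunits, the level spanned 6.53-fold in replicate 1 and 5.76-fold in replicate 2, although the assembled core holds its subunits in equal numbers. In the second quantification the span was 12.1-fold and 10.49-fold. There Psma3 stood above Psmb7, at 227.2 against 212.6 TPM in replicate 1 and 188.5 against 184.1 TPM in replicate 2.

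The 6 ATPases of the 19S base, which unfold substrates and open the core, had a median level of 54.0 TPM in replicate 1 and 52.6 TPM in replicate 2. Psmc3 was the highest, at 100.32 and 115.02 TPM. Psmc4 was the lowest in replicate 1, at 43.05 TPM against 41.58 TPM in replicate 2, and Psmc6 the lowest in replicate 2, at 39.23 TPM against 44.32 TPM in replicate 1. These low neighbours in the order changed places between the libraries, so the first quantification does not rank them. In the second quantification Psmc4 was the lowest ATPase in both libraries, at 53.98 and 49.37 TPM. Psmc6 was not low there, at 112.1 and 98.4 TPM.

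The 11 non-ATPase subunits of the 19S particle had a median of 62.7 TPM in replicate 1 and 56.5 TPM in replicate 2. Psmd2, the large scaffold that binds shuttle factors, had 105.56 and 105.96 TPM. Psmd8, a lid subunit, had 97.79 and 108.01 TPM, and Psmd4, a ubiquitin receptor, had 88.58 and 93.65 TPM. Psmd14, the metalloprotease that removes ubiquitin chains from substrates, was the lowest of the group in both libraries, at 32.74 and 25.36 TPM.

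Among the activators, Psme4 (PA200), a single-chain cap that opens the core without ATP, was the highest, at 78.31 TPM in replicate 1 and 67.15 TPM in replicate 2. It also had the most reads of any member, 15337 and 14208 expected counts. Psme1 and Psme2, which form the interferon-inducible PA28 ring, had 28.00 and 26.38 TPM in replicate 1 and 30.66 and 23.67 TPM in replicate 2. Psme3, the nuclear PA28 gamma, had 26.67 and 34.27 TPM. Psmf1, or PI31, named as an inhibitor of the core, had 6.22 and 6.59 TPM. So by gene TPM the interferon-inducible activator genes stood at the level of the lower core subunits, unlike the interferon-inducible catalytic genes below. For Psme2, coding transcripts held only 56.7% of that level in replicate 1 and 76.0% in replicate 2. Psme2-203, a retained-intron transcript of 185 nt, held 32.2% and 21.3%.

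The 7 assembly chaperones with a Psm symbol were lower than the subunits they help to assemble. Their median was 5.40 TPM in replicate 1 and 6.32 TPM in replicate 2, which is 11.8-fold and 10.4-fold below the median of the 14 core subunits. Chaperones of the 19S base had 6.13 and 7.33 TPM for Psmd5, 4.82 and 6.32 TPM for Psmd9, and 4.91 and 4.51 TPM for Psmd10 (gankyrin). Chaperones of the core ran from Psmg3, at 3.91 and 4.45 TPM, to Psmg2, at 11.06 and 9.84 TPM. The highest of these 7 chaperones lay below the lowest core subunit in each library. Pomp, an assembly factor of the core without a Psm symbol, had 63.28 TPM in replicate 1 and 64.25 TPM in replicate 2. The low level therefore does not extend to every assembly factor.

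Of the 50 genes, 4 did not reach 1 TPM in both libraries. Psma8, the alpha subunit of testis, had 0 reads in replicate 1, which allows up to 3, and 1 read in replicate 2. Psmb11, the catalytic subunit of thymus cortex, had 0 reads in both libraries in the first quantification and 4.38 and 10.08 estimated counts in the second. Psme2b is a retrocopy of Psme2 that shares 78.4% of its 31-base words with transcripts of other genes in the same orientation. Its level of 0.28 and 0.37 TPM is uncertain for that reason. Psmc3ip, a factor of meiotic recombination that matches the rule by name and is no part of the proteasome, had 0.83 and 0.70 TPM.

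Each immunoproteasome subunit was far below the constitutive subunit whose place it takes. Psmb9 had 2.54 TPM in replicate 1 and 1.59 TPM in replicate 2, which was 41.0-fold (95% counting interval 31.4 to 54.6) and 64.0-fold (47.01 to 89.37) below Psmb6. Psmb8 had 3.93 and 2.82 TPM, 17.4-fold (14.3 to 21.2) and 25.2-fold (20.5 to 31.4) below Psmb5. Psmb10 had 10.60 and 11.45 TPM, 13.3-fold (11.4 to 15.7) and 11.4-fold (9.92 to 13.1) below Psmb7. Within each pair the groups of values did not overlap. As a share of the pair's TPM, the immunoproteasome member was 1.96% ± 0.594 for Psmb9, 4.63% ± 1.16 for Psmb8 and 7.53% ± 0.784 for Psmb10 (SD, n = 2). Over all 3 pairs it was 5.16% in replicate 1 and 4.97% in replicate 2. The intervals cover counting error only. In bulk tissue, fewer cells that express a gene and less RNA of it per cell cannot be told apart.

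These genes rest on few reads, 55 and 41 expected counts for Psmb9, 111 and 93 for Psmb8 and 166 and 219 for Psmb10, against 1703 to 4791 for the constitutive subunits. The transcripts behind the levels also differed. Psmb5-201, Psmb6-201 and Psmb7-201, each a full coding transcript, held 96.8%, 94.0% and 99.8% of their genes' level in replicate 1 in the first quantification and 61.0%, 82.9% and 99.9% in the second. For Psmb10, 58.9% of the level in replicate 1 and 46.9% in replicate 2 was assigned to Psmb10-203, a processed transcript of 426 nt with no annotated coding sequence. Its coding transcript Psmb10-201, of 1311 nt, had 1.28 and 2.06 TPM, or 12.1% and 18.0% of the gene. In the second quantification Psmb10-203 was at 0, and Psmb10-205, a retained-intron transcript of 554 nt, led with 47.8% and 66.4%.

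Psmb9 was mainly coding in the first quantification, at 82.6% and 88.0%, and less so in the second, at 41.2% and 51.3%. Psmb9-202, a coding fragment of 433 nt, led the first quantification with 54.2% and 60.1% of the gene and was at 0 in the second, where the retained-intron transcript Psmb9-205 held 51.6% in replicate 1 and 35.2% in replicate 2. Psmb8 was led by the coding transcript Psmb8-203, with 64.6% and 55.7% in the first quantification. The retained-intron transcript Psmb8-205 held 33.3% and 31.6% there and 2.54% and 0% in the second, where coding transcripts together held 91.6% and 90.1% of the gene. Counts this low leave the division between transcripts imprecise, and the cause of the disagreement was not tested.

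**Figure D2:**
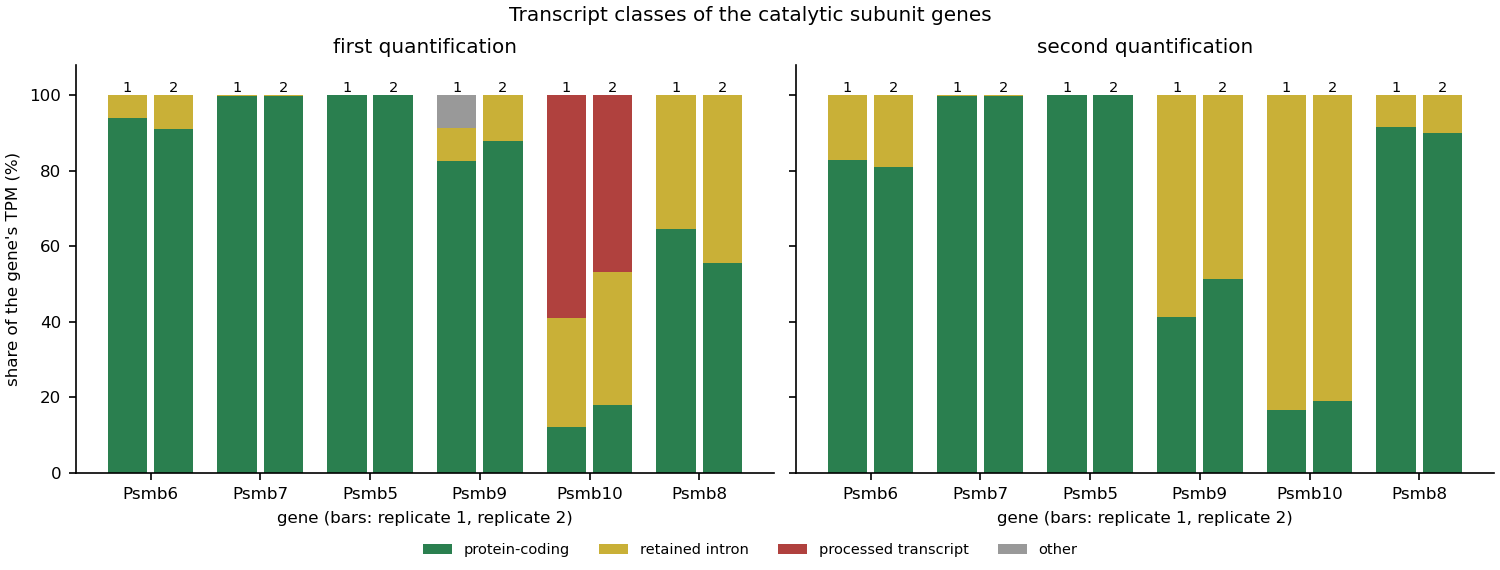
Share of each catalytic gene's TPM (in percent) by annotated transcript class, for each library (bars marked 1 and 2) and each quantification. Coding transcripts hold at least 81.0% of Psmb6, Psmb7 and Psmb5 in every bar, but at most 19.1% of Psmb10.

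TPM divides the reads by a length averaged over the transcripts in use. For Psmb10 that mean transcript length was 595 nt in replicate 1 and 652 nt in replicate 2, against 1164 nt for Psmb7 in both. Counting only protein-coding transcripts, Psmb10 stood 110-fold and 63.0-fold below Psmb7 in the first quantification and 80.5-fold and 57.5-fold below it in the second. Dividing the gene's reads by the length of the transcript with the longest coding sequence gave 32.7-fold and 24.99-fold. By coding transcripts, Psmb8 was 26.9-fold and 45.3-fold below Psmb5 in the first quantification and 15.3-fold and 25.8-fold below it in the second. Psmb9 was 46.9-fold and 66.6-fold below Psmb6, then 83.8-fold and 102-fold. Over 7 measures and both libraries, all 42 values put the immunoproteasome subunit lower, by 11.0-fold to 110-fold. Which pair was least unequal changed with the measure: Psmb10 with Psmb7 by gene TPM or leading transcripts, and Psmb8 with Psmb5 by undivided counts or by coding transcripts. By counts over the full coding transcript it was Psmb8 with Psmb5 in replicate 1 and Psmb10 with Psmb7 in replicate 2. For Psmb8 that transcript is Psmb8-201, of 1628 nt, which was at 0 TPM in both libraries of the first quantification. In the second it held 30.3% and 50.2% of the gene. Over coding transcripts alone, the 3 immunoproteasome genes held 1.89% and 1.68% of the summed level of the 6 catalytic genes in the first quantification and 2.27% and 1.94% in the second.

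**Figure D3:**
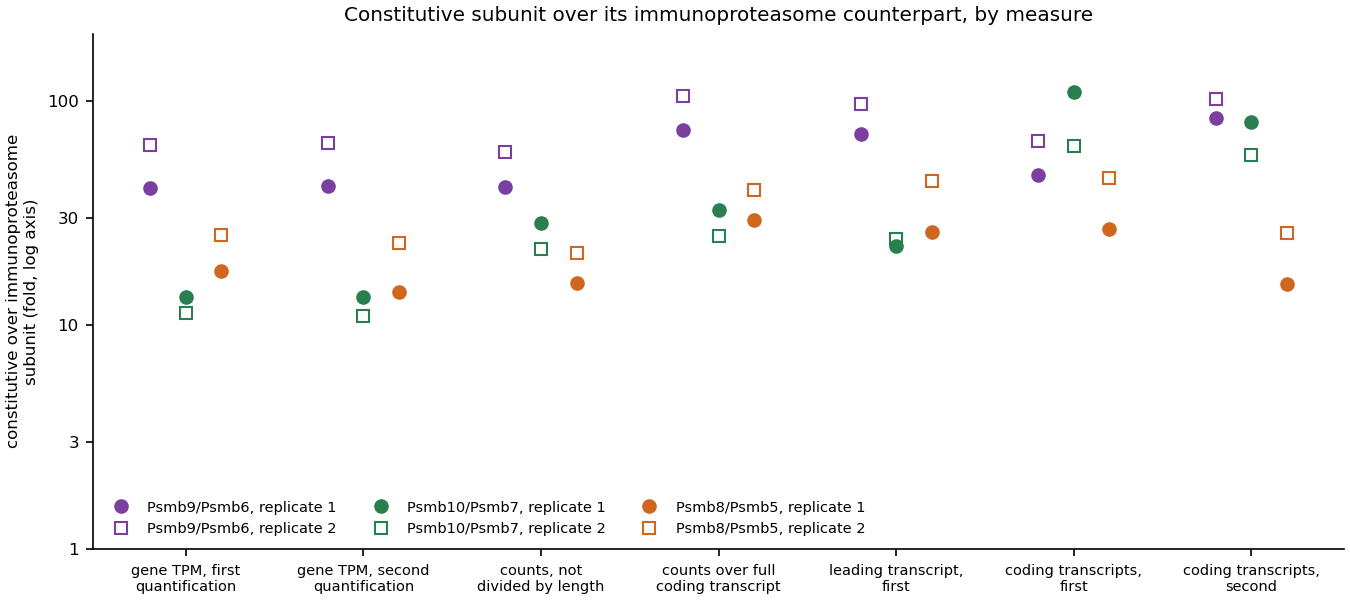
Fold by which each constitutive catalytic subunit exceeded its immunoproteasome counterpart (log axis) under 7 measures, with filled circles for replicate 1 and open squares for replicate 2. All 42 points lie between 11.0 and 110, and the Psmb10 and Psmb7 pair moves most between measures.

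Genes of antigen presentation and the interferon response, which are known to be induced together with the immunoproteasome, were measured beside it. All 17 listed genes were found, 16 passed the count filter described below, and none of the 16 was called different between the libraries, by a rule that called 6.18% of all genes tested. Their summed level was 196.92 TPM in replicate 1 and 150.42 TPM in replicate 2. B2m, the light chain of MHC class I, had 67.39 and 54.04 TPM. The class I heavy chains H2-K1 and H2-D1 had 42.69 and 30.27 TPM in replicate 1 and 24.34 and 24.87 TPM in replicate 2. By counts scaled as described below, the ratio of H2-K1 was 0.601 (0.549 to 0.658), a difference beyond counting error but under 2-fold. Leukocytes carry immunoproteasomes, and their 22 markers summed to 55.90 TPM in replicate 1 and 61.36 TPM in replicate 2. Of these markers, 10 reached 1 TPM in replicate 1 and 9 in replicate 2, the highest was Lyz2 at 16.91 and 20.42 TPM, and 1 marker, Cd8a, was at 0 in both libraries of the first quantification. Of the 12 markers tested, 9 had higher and 3 had lower values in replicate 2. The part of leukocytes in the immunoproteasome level was not tested.

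Between the libraries, none of the 47 members with a mean count of at least 10 was called different by the exact binomial test on counts scaled by TMM, a library scaling by edgeR, with an adjusted p (Benjamini-Hochberg) under 0.05 and a difference of 2-fold or more. Over all 14965 genes tested, 6.18% were called, 4.48% with higher values in replicate 2 and 1.7% with higher values in replicate 1. The test compares these 2 libraries and knows counting error only. At an unadjusted p below 0.05 and no minimum size, 19 members passed, against 42.5% of all genes. Of them 5 had higher values in replicate 2, against 22.5% of all genes, and 14 had higher values in replicate 1, against 20%. After adjustment and still with no minimum size, 14 of the 47 passed, against 35.4% of all genes. At 1.5-fold none passed, against 11.8% of all genes. By edgeR's exact test with a common dispersion, which is taken from the same 2 libraries and called 1.82% of all genes, none of the members was called.

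The differences were small. On the log2 scale of TMM-scaled counts, 46 of 47 members differed by less than 0.5, as did 78.9% of all genes tested and 88.0% of those with a mean count of at least 100. The median size of the difference was 0.10 for the members and 0.21 for all genes tested. With a mean count of at least 100 it was 0.09 for the members and 0.16 for all genes. Its signed median was -0.03 for the members, with 18 above and 29 below 0, and 0.01 for all genes. The side depends on the scaling: on log2(TPM + 0.5) the members' median was 0.03, beside 0.05 for all genes, and by spike-in counts it was 0.19, with 40 above and 7 below 0, beside 0.23 for all genes. No direction for the whole set is given for that reason.

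The 3 widest ratios of TMM-scaled counts were those of Psmb9, Psmb8 and Psmc3ip, all genes with few reads. Psmb9 was 0.658 times as high in replicate 2 (95% counting interval 0.428 to 1.00) and Psmb8 0.740 times (0.555 to 0.983). Psmc3ip, with 26 and 22 reads, had a ratio of 0.747 (0.404 to 1.37). The third immunoproteasome gene, Psmb10, had a ratio of 1.16 (0.948 to 1.43). The intervals of Psmb9, Psmc3ip and Psmb10 include 1. Among genes with over 1000 reads, Psmd14 had a ratio of 0.805 (0.743 to 0.872), Psme4 of 0.818 (0.799 to 0.837) and Psma3 of 0.846 (0.805 to 0.890). Of the members with higher values in replicate 2, Psmd5, with 409 and 544 reads, had a ratio of 1.17 (1.03 to 1.34), Psmd11, a lid subunit, of 1.14 (1.09 to 1.19) and Psme3 of 1.10 (1.03 to 1.18). Scaling by spike-in counts moves every ratio by the same factor. That shift took 37 of the 47 ratios out of the interval given by TMM, so the sign of a small difference is not fixed by these data.

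**Figure D4:**
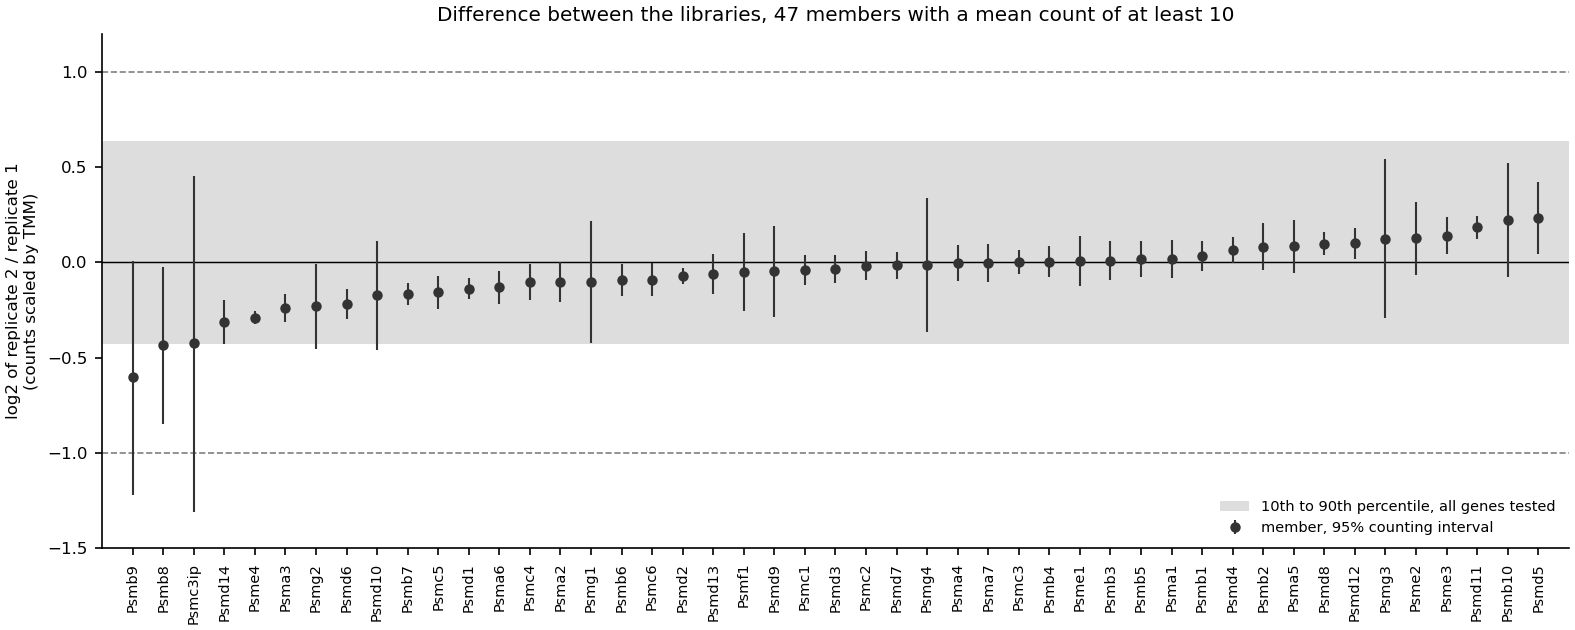
Ratio of replicate 2 to replicate 1 for the 47 tested members (log2 of TMM-scaled counts), with 95% counting intervals, ordered by value. All points lie inside the dashed 2-fold lines, and the grey band runs from -0.43 to 0.64, the 10th to the 90th percentile of all genes tested.

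The second quantification gave higher TPM for nearly all members. Among the 46 detected genes the median ratio of the second to the first was 1.43, beside 1.5 for the total of all nuclear protein-coding genes. By the raw ratio Psmc6 rose most, by 2.52-fold, from 44.32 to 112.1 TPM in replicate 1 and from 39.23 to 98.4 TPM in replicate 2. Its coding transcript Psmc6-201 held 56.7% and 64.2% of the gene in the first quantification and 20.5% and 21.5% in the second, where the processed transcript Psmc6-206 rose to 32.5% and 42.9%. Psmd5 rose by 2.12-fold, from 6.13 to 12.7 TPM in replicate 1 and from 7.33 to 15.9 TPM in replicate 2. Psma2 was the 1 gene whose level was lower in the second, by a ratio of 0.813. Divided by the ratio of the protein-coding totals, the values were 1.68 for Psmc6, 1.42 for Psmd5 and 0.542 for Psma2. Against that common shift Psma2 moved most in fold.

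**Figure D5:**
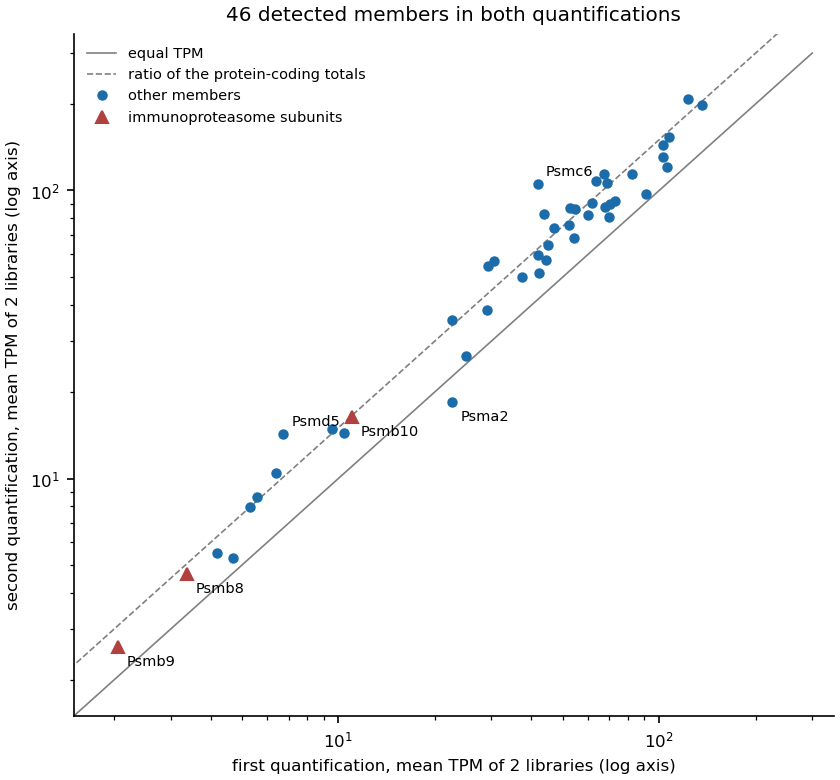
Mean TPM of the 46 detected members in the first (x axis) and second (y axis) quantification, both on log axes, with lines for equal TPM and for the ratio of the protein-coding totals. Psmc6 and Psmd5 lie more than 2-fold above the line of equality, and Psma2 alone lies below it.

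For 37 of the 46 genes both quantifications named the same leading transcript. The median share of the leading transcript was 90.2% in replicate 1 and 88.7% in replicate 2 in the first quantification and 76.6% and 72.5% in the second. Noncoding leaders were rare in the first, where 44 of 46 were coding, against 41 of 46 in the second. Psmd13, a lid subunit, was led in both by Psmd13-211, a transcript annotated as a target of nonsense-mediated decay, with 46.97% and 46.31% in the first and 54.1% and 55.1% in the second. Psma3, the most abundant alpha subunit, was led by the coding Psma3-204 in the first, with 39.0% and 42.1%, and by the decay target Psma3-201 in the second, with 45.1% and 45.4%, where Psma3-204 was at 0. Coding transcripts together held 73.1% and 72.0% of Psma3 in the first and 4.14% and 3.91% in the second.

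The other genes of the pathway were counted in the same test, which called 6.18% of all genes, so a list of this size with few or no calls is not set apart. Of 15 subunits, assembly and associated factors without a Psm symbol, none was called, and the 3 most abundant were Ecpas, a scaffold protein that binds the proteasome, at 125.43 and 111.02 TPM, Zfand5, which activates it in muscle atrophy, at 115.08 and 112.94 TPM, and the ubiquitin ligase Trip12 at 87.60 and 83.17 TPM. Of 16 ubiquitin, E1, shuttle, segregase and peptidase genes, none was called.

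Of 10 listed regulators of proteasome transcription 9 were found, and 2 of these were called, both higher in replicate 2, as were 4.48% of all genes. Mafk had 5.59 and 14.28 TPM, and Maff had 1.41 and 4.26 TPM. By TMM-scaled counts the ratio was 2.46 (2.21 to 2.73) for Mafk and 2.88 (2.24 to 3.74) for Maff. Both genes encode small Maf proteins, which pair with NRF1 and NRF2 on DNA. NRF1, encoded by Nfe2l1, is the factor that raises proteasome genes when proteasome activity falls. Nfe2l1 had 155.99 and 240.50 TPM, with a ratio of 1.38 (1.36 to 1.41) by TMM-scaled counts, and was not called. Its protease Ddi2 had 28.50 and 24.25 TPM, and the third small Maf gene, Mafg, 24.32 and 24.81 TPM.

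NRF1 and small Maf proteins bind the antioxidant response element, searched here as TGACNNNGC on both strands of the 250 bases before each start in RefSeq promoters (GRCm38.p6), where 42 of the 50 genes had an entry. It was found for 5 of the 42, or 11.9%, namely Psmb5, Psmb6, Psmc6, Psmd9 and Psmd12, and for 11.5% of all 27025 genes with a promoter entry. A CCAAT box was found for 15, or 35.7%, against 37.5% of all genes, and the ETS letters CCGGAAGT for 5, or 11.9%, against 3.23%. These letter matches are descriptions and show no binding. The promoters of Psmb6 and Psmb5 are shown because they are the catalytic subunit genes in which the antioxidant element was found. Psmb7 had no promoter entry and was not searched. They run 5′ to 3′ on the gene's strand, with the antioxidant element match of Psmb6 (chr11:70525107-70525356, plus) and of Psmb5 (chr14:54617996-54618245, minus) in capitals.
Psmb6: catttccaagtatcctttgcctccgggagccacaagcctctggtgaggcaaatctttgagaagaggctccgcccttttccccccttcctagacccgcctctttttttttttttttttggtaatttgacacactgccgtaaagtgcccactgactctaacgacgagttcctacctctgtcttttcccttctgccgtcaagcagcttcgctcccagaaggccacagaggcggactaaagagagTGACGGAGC
Psmb5: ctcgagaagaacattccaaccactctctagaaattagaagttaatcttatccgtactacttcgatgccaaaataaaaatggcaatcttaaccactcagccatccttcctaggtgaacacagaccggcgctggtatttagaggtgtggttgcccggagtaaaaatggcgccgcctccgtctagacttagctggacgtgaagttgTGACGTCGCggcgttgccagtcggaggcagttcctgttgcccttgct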

How the data were processed

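Total RNA-seq of 2 gastrocnemius libraries was analysed from the deposited tables on assembly mm10 with GENCODE M21, per the labels and the file lists. Aligner and quantification programs: not given in the sources used here. Of 2 quantifications, the first is the gene table and its transcript table, whose expected counts and TPM the authors derived from a transcriptome alignment, per the file lists. The second, read directly from the sequencing reads, gives estimated counts and TPM per transcript, which were summed per gene. The deposited percent of isoform use and the posterior standard deviation that the file headers list served as checks of transcript shares and of shared reads. Total expected counts of 40795740 and 44919441 limit the precision.

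Expected counts were rounded, and the genes tested had a mean count of 10 or more (edgeR 4.0.16 for TMM, scipy 1.17.1 for the 2-sided exact binomial test and the 95% Clopper-Pearson intervals, R 4.3.3, DESeq2 1.42.0 for alternative size factors), with p-values adjusted over all genes tested. The test was tried on simulated counts that held counting error only, so the trial does not cover any other spread between libraries. With 1 group there was nothing for edgeR's quasi-likelihood test to compare. Ratios and intervals use no pseudocount, and log2 differences add 0.5. Ratios of replicate 2 to replicate 1 are of TMM-scaled counts, so they can differ from the ratio of the TPM printed beside them. Intervals cover counting error only. The 96 spike-ins were used as one scaling, and 26249 tRNA and phiX entries, with 2 counts in each library, were left out. Whether reads of the CAST/EiJ alleles were lost on the reference was not tested.

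Every member may be named. Other genes named are called genes and the 3 most abundant of each pathway list, the assembly factor Pomp, and markers. The members and lists were chosen with earlier results of these data known. Protein-coding transcripts alone and the full coding length were measures added after seeing the data. Sequences come from the GENCODE M21 transcripts and from RefSeq promoters. Some genes that the naming rule takes are not reported here.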

Additional observations from a re-analysis of the deposited data

How the results depend on the processing

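The count of 0 called members held under DESeq2 size factors, total counts, spike-in counts, no count filter, a mean count of at least 100, a fold of at least 1.5, the second quantification and edgeR's exact test. The count of detected members ran from 41 at 5 TPM to 47. Ratios of immunoproteasome to constitutive subunit moved by more than the spread between libraries as follows. Psmb9 to Psmb6 was 0.0200 by gene TPM and 0.0121 by leading transcripts, 0.0109 by coding transcripts of the second quantification and 0.0115 by counts over the full coding transcript. Psmb10 to Psmb7 was 0.0815, against 0.0403 by counts, 0.0429 by leading transcripts, 0.0125 and 0.0149 by coding transcripts of the first and second quantification and 0.0353 over the full coding transcript. Psmb8 to Psmb5 was 0.0486, against 0.0306, 0.0297 and 0.0295 by leading, coding and full coding transcripts of the first. Leaving out 1 library gave 0.0156 to 0.0244, 0.0750 to 0.0880 and 0.0397 to 0.0576 for the 3 pairs in that order. The members' share of protein-coding TPM was 0.50%, against 0.479% in the second quantification and 0.328% by counts, and 0.489% to 0.511% without 1 library. Their median log2 difference was 0.03, against -0.035 by TMM-scaled counts, 0.19 by spike-in counts and -0.051 in the second quantification. The core span was 6.15-fold, against 11.3-fold in the second quantification and 5.76 to 6.53 without 1 library. The median leading transcript share was 89.5%, against 74.5% in the second quantification. Apart from transcript lengths, which the count and coding measures change by construction, the cause was not tested. No paired analysis was possible because there is 1 group.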

Other observations

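Several of the genes lie close together. In mm10, Psmb8 (chr17:34197721-34201454) and Psmb9 (chr17:34181987-34187764) are 9956 bp apart and face away from each other, with the peptide transporter gene Tap1 between them and overlapping Psmb9 by 212 bp on the opposite strand. Tap1 had 1.33 TPM in replicate 1 and 1.5 TPM in replicate 2, against 2.54 and 1.59 TPM for Psmb9. Psme1 and Psme2, which encode both kinds of chain of one activator ring, are 5911 bp apart on chromosome 14. Psmb5 and the thymus gene Psmb11 are 3410 bp apart on the same chromosome. In the first quantification Psmb5 had 68.19 and 71.10 TPM and Psmb11 had 0 reads. Chromosome 11 holds 10 of the 50 genes, more than any other chromosome.

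Some members share sequence with pseudogenes, which can limit how reads are assigned. Of the 50 genes, 10 share over 10% of their 31-base words with another gene on the same strand, 3 share over 50%, and 17 share none. Psmb5 shares 71.7% with other genes, mainly the processed pseudogene Gm3375, which was given 132.86 and 118.14 expected counts beside 1703.14 and 1949.86 for Psmb5. Psma5 shares 58.7%, mainly with Gm8394, at 97.79 and 149.07 counts beside 778.63 and 934.70. Psma3 was the only tested member whose deposited posterior standard deviation passed 1% of its count, at 50.12 and 53.41 reads. Its pseudogene Gm13835 was given 205.48 and 197.45 counts in the first quantification and 0 in the second.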
